A study of Mus musculus with 6 samples.

Results

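The regions described here are the OCT4- and NANOG-bound regions at gene starts in mouse embryonic stem cells. A region was taken as a promoter region when its centre lay within 1 kb of the transcription start site of any annotated transcript of any biotype (GENCODE vM1 on mm9), so position alone, and not binding, chose the members. Of 23767 distinct regions in the 6 deposited lists, 2114 met this rule (8.89%, 95% Wilson interval 8.54 to 9.26%), although the stretches within 1 kb of a start site make up 4.00% of the chromosomes. The cells were E14Tg2a-derived Esrrb-2a-GFPd-IBIH cells (E-GFPd1), a clonal line in LIF and serum whose destabilised GFP is made from the Esrrb locus, so every fraction carries the reporter and comes from 1 line. They were sorted into Esrrb-GFP high (the top 10%), Esrrb-GFP medium (the 15% just above negative) and Esrrb-GFP negative cells, and OCT4 or NANOG was immunoprecipitated from each and sequenced (ChIP-Seq). There was 1 library per factor and fraction, and a list holds only positions, with no height, score or read count, so read depth is unknown. Fractions were therefore compared by presence in the lists, with no p-value. All intervals are 95% intervals that cover counting error over regions only, and regions near one gene are not independent of each other.

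OCT4 (encoded by Pou5f1) and NANOG are transcription factors of the pluripotency network. OCT4 reads an octamer sequence, alone or beside a SOX2 half-site as the Oct-Sox motif, while ESRRB is a nuclear receptor that takes part in the naive state. In embryonic stem cells both factors bind mostly at distal enhancers. The start sites of many mouse genes lie in CpG islands, stretches rich in CG dinucleotides, and those of developmental regulators such as the Hox genes are known as Polycomb targets in these cells.

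Sequences of 7 promoter regions are shown for some of the presence patterns described later. These are both factors in high cells, OCT4 in every fraction without NANOG, OCT4 in medium cells alone, and NANOG alone. No sequence is shown for OCT4 in medium and negative cells without NANOG, a pattern of 290 promoter regions. They were chosen after their values were seen, from regions whose 200 bases around the centre touch no annotated exon. Each is the mm9 reference sequence on the strand of its gene, 5′ to 3′, with the match to the motif named before it in capitals. Matches to other motifs counted later stay in lower case, such as an ESRRB match with 1 mismatch, tcaaggcca, in the Zfp42 sequence.
Esrrb, chr12:87811912-87812111, plus strand, octamer: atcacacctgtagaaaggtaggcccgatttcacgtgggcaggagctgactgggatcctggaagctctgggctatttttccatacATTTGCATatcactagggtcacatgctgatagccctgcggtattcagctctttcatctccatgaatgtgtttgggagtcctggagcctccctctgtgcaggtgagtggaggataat
Phc1, chr6:122291072-122291271, minus strand, octamer: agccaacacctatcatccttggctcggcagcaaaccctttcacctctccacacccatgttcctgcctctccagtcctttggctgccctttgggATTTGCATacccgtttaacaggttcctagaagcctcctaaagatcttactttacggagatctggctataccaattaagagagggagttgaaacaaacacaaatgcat
Zfp42, chr8:44392412-44392611, minus strand, octamer: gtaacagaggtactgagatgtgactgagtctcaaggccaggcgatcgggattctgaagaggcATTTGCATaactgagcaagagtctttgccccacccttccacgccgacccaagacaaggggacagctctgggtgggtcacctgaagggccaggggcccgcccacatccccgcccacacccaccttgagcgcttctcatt
Spp1, chr5:104863152-104863351, plus strand, ESRRB motif: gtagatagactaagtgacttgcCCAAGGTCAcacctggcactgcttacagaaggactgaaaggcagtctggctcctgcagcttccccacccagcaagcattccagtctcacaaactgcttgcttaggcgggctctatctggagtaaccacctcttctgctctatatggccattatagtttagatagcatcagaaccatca
Cdx2, chr5:148118952-148119151, minus strand, octamer: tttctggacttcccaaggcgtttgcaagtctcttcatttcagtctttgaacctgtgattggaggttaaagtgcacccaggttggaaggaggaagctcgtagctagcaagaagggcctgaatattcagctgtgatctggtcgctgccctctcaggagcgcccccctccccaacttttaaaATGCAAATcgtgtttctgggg
Hoxb1, chr11:96226782-96226981, plus strand, Oct-Sox motif: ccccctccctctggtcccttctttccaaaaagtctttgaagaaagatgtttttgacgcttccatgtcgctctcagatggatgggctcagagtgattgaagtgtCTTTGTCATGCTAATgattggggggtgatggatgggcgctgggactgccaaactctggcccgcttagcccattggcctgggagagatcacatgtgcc
Otx2, chr14:49282552-49282751, minus strand, octamer: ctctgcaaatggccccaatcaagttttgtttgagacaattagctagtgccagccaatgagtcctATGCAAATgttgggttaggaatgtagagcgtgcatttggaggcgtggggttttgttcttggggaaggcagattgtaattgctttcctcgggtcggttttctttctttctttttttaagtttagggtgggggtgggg
The Esrrb region lay in an intron, 944.5 bp downstream of the nearest Esrrb start site, and was present for both factors in high and medium cells and for neither in negative cells. The Phc1 region, 592.5 bp upstream, was in every list but NANOG negative. The Zfp42 and Otx2 regions were in the OCT4 medium list alone, the Spp1 region was in NANOG high and medium without OCT4, and the Cdx2 and Hoxb1 regions held OCT4 in all 3 fractions and NANOG in none. The octamers read against transcription at Esrrb, Phc1 and Zfp42 and with it at Cdx2 and Otx2. Counted from position 1 at the 5′ end of the motif, the Hoxb1 match differs from the Oct-Sox motif by A2T and A12T, and the Spp1 match differs from the ESRRB motif by T1C.

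Promoter regions were mostly OCT4 regions. OCT4 was present in at least 1 fraction at 1833 of the 2114, NANOG at 515, and both at 234, while 1599 held OCT4 only and 281 NANOG only. The promoter share of a list was 8.89% for OCT4 high (1107 of 12449 regions), 10.1% for OCT4 medium (1463 of 14464) and 10.9% for OCT4 negative (1130 of 10369). For NANOG it was 5.28% in high (498 of 9425) and 6.11% in medium (289 of 4729), and the 24 promoter regions of the NANOG negative list made up 8.39% of its 286 regions (5.70 to 12.2%). In high and in medium cells, a region of the OCT4 list thus lay at a promoter more often than one of the NANOG list, with intervals that did not overlap.

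The commonest pattern over the 6 lists was OCT4 in all 3 fractions with no NANOG. It covered 491 promoter regions (23.2%) against 17.0% of all other regions (odds ratio 1.48, 1.33 to 1.65). OCT4 in medium and negative cells without NANOG covered 290 promoter regions (13.7% against 8.84%, odds ratio 1.64, 1.44 to 1.87), and OCT4 in medium cells alone 276 (13.1% against 8.10%, odds ratio 1.71, 1.49 to 1.95). NANOG high alone went the other way, with 132 promoter regions (6.24% against 13.1%, odds ratio 0.441, 0.368 to 0.528). Presence in a single list was about as common at promoters (661 regions, 31.3%) as elsewhere (31.0%). A single promoter region, upstream of the adaptor gene Shc4, was in all 6 lists, against 42 of the other regions.

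**Figure D1:**
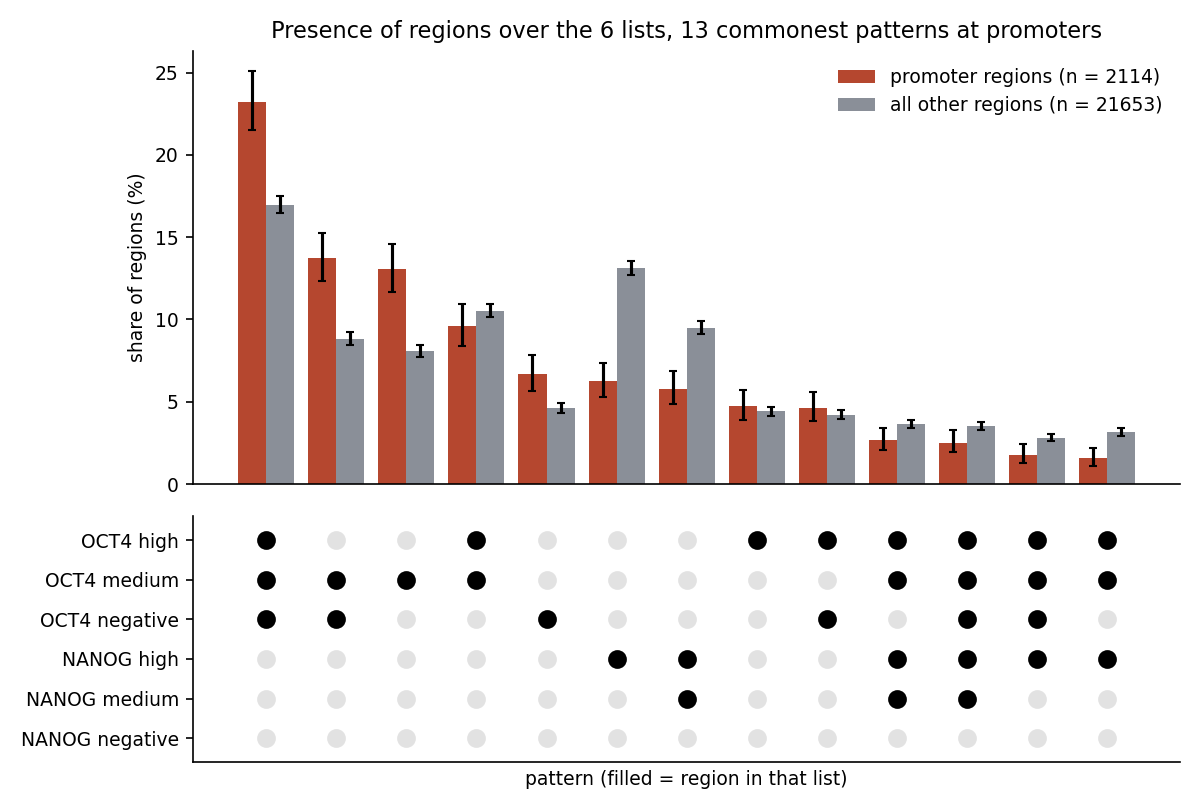
Share of regions (%, y axis) in each of the 13 commonest patterns at promoters, for 2114 promoter regions and 21653 other regions, with 95% Wilson intervals; filled dots below mark the lists that hold the region. OCT4 in all 3 fractions without NANOG leads at promoters with 23.2%, and NANOG high alone stands at 6.24% there against 13.1% elsewhere.

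At the 1 kb limit itself, 79 promoter regions had their centre in the last 50 bp inside, of which 39 were in OCT4 high and 14 in NANOG high. In the first 50 bp outside lay 78 regions, of which 36 were in OCT4 high and 30 in NANOG high.

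Promoter regions lay upstream of the nearest start site more often than downstream, at 1271 of 2114 (60.1%, 58.0 to 62.2%). The median distance was 368.5 bp, and 683 regions (32.3%) had their centre within 200 bp. The upstream share was 62.2% (59.9 to 64.5%) of the 1666 regions nearest to a protein-coding gene and 52.2% (47.6 to 56.8%) of the 448 nearest to another biotype. OCT4-only regions peaked in the last 100 bp before the start site, where 199 of 1599 lay (12.4%). Regions with NANOG peaked farther upstream, between 100 and 200 bp, with 59 of 515 (11.5%), and 32 (6.21%) lay in the last 100 bp. Within 200 bp of the start site were 34.5% of OCT4-only regions (32.2 to 36.9%) and 25.4% of those with NANOG (21.9 to 29.4%).

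**Figure D2:**
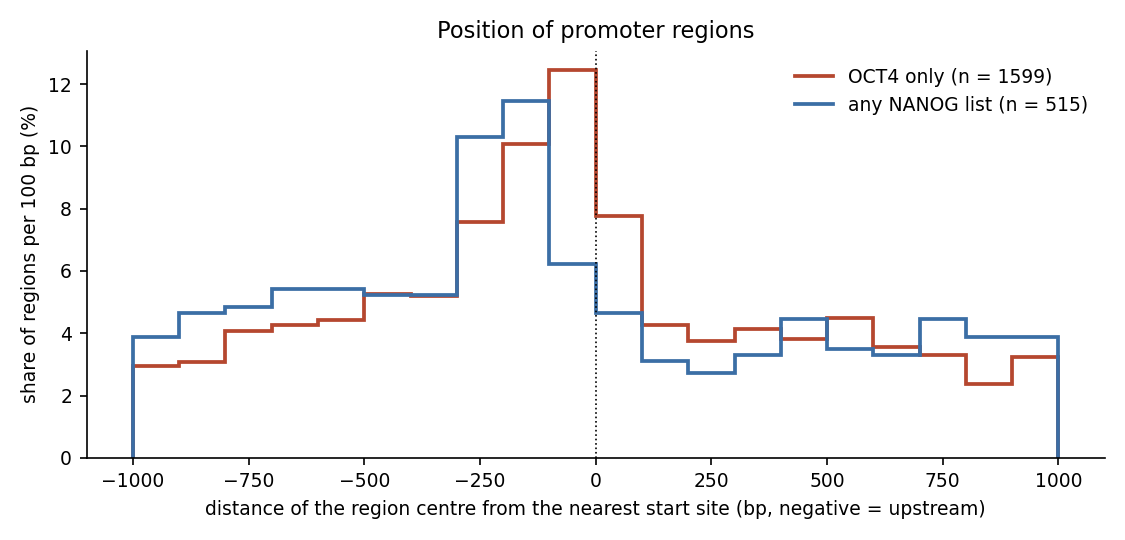
Share of promoter regions per 100 bp (%, y axis) against the distance of the region centre from the nearest start site (bp, x axis, negative upstream), for 1599 OCT4-only regions and 515 regions in any NANOG list. The OCT4-only line peaks at 12.4% directly upstream of the start site, where the NANOG line stands at 6.21%.

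By the annotation, 379 centres (17.9%) fell in an exon, 972 (46.0%) inside a gene body but in no exon, written as intron here, and 763 (36.1%) outside genes. Start sites on both strands lay within 1 kb of 171 promoter regions (8.09%, 7.00 to 9.33%), and 61 of these centres lay between divergent start sites, upstream of a start site on each strand. Of all 37273 annotated genes off the mitochondrial genome, 13.2% had an opposite-strand start site within 1 kb of their 5′ end. This share was counted from the 5′ end, and that of promoter regions from a centre up to 1 kb from a start site. The shares are therefore not taken at like positions, and nothing is read from their difference. Both strands were served at 9.32% of OCT4-only regions (7.99 to 10.8%) and at 4.27% of regions with NANOG (2.84 to 6.38%). The nearest start site lay inside a gene of the opposite strand, an antisense position, at 242 regions (11.4%), which was 11.9% of OCT4-only regions and 10.1% of those with NANOG, with intervals that overlapped.

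At least 1 promoter region was found at 2000 of 37310 annotated genes (5.36%), of which 1731 had 1 region, 216 had 2, 40 had 3, 8 had 4 and 5 had 5. Protein-coding genes had one at 1550 of 22380 (6.93%, 6.60 to 7.27%). Long intergenic non-coding RNA genes had one more often, at 122 of 1273 (9.58%, 8.09 to 11.3%), and pseudogenes less often, at 66 of 5201 (1.27%, 0.999 to 1.61%). Processed transcripts stood at 4.51% and miRNA genes at 2.73%. The 5 genes with 5 promoter regions were the lincRNA gene Gm17337, the homeobox gene Hoxd11, the Nodal antagonist Lefty1, the eye and neural regulator Pax6 and Tcfap2a, which encodes an AP-2 transcription factor. All 5 regions of Tcfap2a were in OCT4 negative and in no NANOG list, and 1 of them was in OCT4 high. At Gm17337, 3 regions upstream of the start site held OCT4 only and 2 downstream held NANOG only. NANOG was in some list at 23.4% of regions nearest to protein-coding genes (21.4 to 25.4%), at 20.0% of the 130 nearest to lincRNA genes (14.03 to 27.69%) and at 40.0% of the 65 nearest to pseudogenes (28.97 to 52.14%). Reads of pseudogenes, small RNA genes and other multi-copy genes can align to several copies, and the part of this in their counts was not tested.

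OCT4 presence was lost between high and negative cells less often at promoters. Of 1107 promoter regions in OCT4 high, 416 were absent from OCT4 negative (37.6%), against 45.8% of 11342 other regions (odds ratio 0.712, 0.627 to 0.809). Over all regions the lost share was 45.1%. The odds ratio within quartiles of GC content was 0.712 (0.627 to 0.809). Loss by medium cells did not differ detectably, at 20.5% against 21.4% elsewhere and 21.3% over all regions (odds ratio 0.946, 0.812 to 1.10). Among promoter regions, OCT4 loss from high to negative did not differ detectably between upstream and downstream regions (odds ratio 1.04, 0.808 to 1.34). It was commoner where the nearest gene was protein-coding, at 39.2%, than at other biotypes, at 31.1% (odds ratio 1.43, 1.04 to 1.96). The study's methods count a loss when the depth-corrected signal is under 50% of the region's highest, so a lost region can still hold signal, and they do not state whether every absence from a list follows that rule.

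OCT4 presence was also gained more often at promoters, where gained means in the later list but not in the high one. The paper reports that sites called for OCT4 in negative cells only had, on average, detectable signal in high cells too. A gain in the lists therefore need not be OCT4 at a new site. Of the 1130 promoter regions in OCT4 negative, 439 were absent from OCT4 high (38.8%), against 33.5% of other regions and 34.1% over all (odds ratio 1.26, 1.11 to 1.43). Within quartiles of GC content this odds ratio fell to 1.13, with an interval that included 1 (0.996 to 1.29). For medium cells the gained share was 39.9% (583 of 1463) against 31.5% elsewhere and 32.3% over all, with an odds ratio of 1.44 (1.29 to 1.61), or 1.26 (1.13 to 1.41) within GC quartiles.

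NANOG presence at promoters was lost by medium cells at 223 of 498 regions (44.8%), against 52.7% elsewhere and 52.3% over all (odds ratio 0.729, 0.608 to 0.874). With the limit drawn at 500 bp from the start site the interval included 1 (0.810, 0.638 to 1.03). Regions within 200 bp of the start site and those farther out did not differ detectably in this loss (odds ratio 1.27, 0.843 to 1.90). By negative cells, 480 of the 498 were lost (96.4%), close to the 97.5% over all regions.

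NANOG accompanied OCT4 less often at promoters than elsewhere. In high cells NANOG was present at 212 of the 1107 promoter regions with OCT4 (19.2%), against 30.5% of other regions and 29.5% over all (odds ratio 0.539, 0.462 to 0.629), and the odds ratio was 0.615 (0.525 to 0.719) within GC quartiles. The reverse share, OCT4 among the 498 promoter regions with NANOG, was 42.6%, and did not differ detectably from 38.8% elsewhere (odds ratio 1.17, 0.974 to 1.40). Close to the start site NANOG was rarer still beside OCT4, at 49 of 362 promoter regions within 200 bp (13.5%) against 163 of 745 farther out (21.9%, odds ratio 0.559, 0.395 to 0.791). Class I regions held both factors in high and neither in negative cells, and Class II regions kept OCT4 without NANOG in negative cells. Promoters held 111 and 97 of these, so Class II made up 46.6% at promoters, against 43.3% elsewhere and 43.5% over all, a difference of 3.34 percentage points (-3.52 to 10.3, Newcombe interval).

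**Figure D3:**
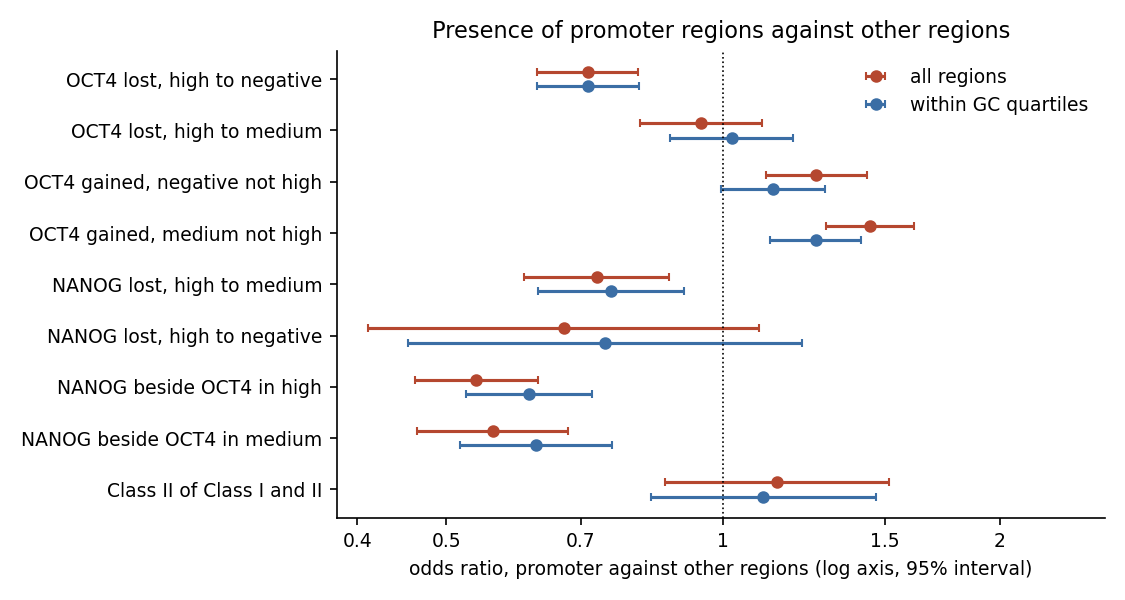
Odds ratio of each outcome for promoter against other regions (x axis, log scale, 95% interval), for all regions and within quartiles of GC content; the dotted line marks 1. NANOG beside OCT4 in high cells lies at 0.539, OCT4 loss from high to negative at 0.712 and OCT4 gain in medium at 1.44, while the gain in negative cells lies at 1.13 within GC quartiles, with an interval that includes 1.

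Where a promoter region in OCT4 high had another such region, outside promoters, within 20 kb, it was lost in negative cells at 72 of 152 sites when the nearest of these was lost (47.4%) and at 76 of 210 when it was kept (36.2%, odds ratio 1.59, 1.04 to 2.43). Among other regions this odds ratio was 1.71 (1.52 to 1.92). Among 279 pairs of adjacent promoter regions of one gene, 38 had the same pattern over the 6 lists (13.6%), and 36 paired an OCT4-only region with a NANOG-only region (12.9%). Of the 78 such pairs with both regions in OCT4 high, 45 were both kept or both lost in negative cells (57.7%, 46.6 to 68.0%), 26 kept and 19 lost. No background share was computed for these pairs, so nothing is read from their counts.

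CpG-rich promoter regions with OCT4 rarely held NANOG. A 500 bp window was called CpG-rich at a GC content of at least 50% and an observed over expected CpG ratio of at least 0.6. This held for 312 promoter regions (14.8%, 13.3 to 16.3%), 0.84% of other regions and 32.3% of the 5′ ends of all annotated genes. Promoter windows were centred on regions up to 1 kb from a start site, and gene-start windows lay at the 5′ end. CpG-rich promoter regions lay a median of 196 bp from the start site and the rest 407.5 bp. The shares at promoter regions and at gene starts are therefore not taken at like positions. Of 145 CpG-rich promoter regions in OCT4 high, 8 also held NANOG (5.52%, 2.82 to 10.5%), against 204 of 962 that were not CpG-rich (21.2%, odds ratio 0.217, 0.105 to 0.450). Away from promoters the shares went the same way, at 11 of 84 CpG-rich regions (13.1%) and 30.7% of those not CpG-rich. Among CpG-rich regions, the odds ratio of promoters against other regions was 0.388, with an interval that included 1 (0.149 to 1.006). In OCT4 negative, 92 of 191 CpG-rich promoter regions were absent from high (48.2%), against 37.0% of the rest (odds ratio 1.59, 1.16 to 2.17). CpG-rich regions away from promoters were gained at 55 of 110, with no detectable difference from promoters (odds ratio 0.929, 0.581 to 1.49). OCT4 loss from high to negative was 31.7% and 38.5%, a difference that was not detectable (odds ratio 0.743, 0.512 to 1.08). Among the regions that were not CpG-rich, promoters still held NANOG beside OCT4 less often than other regions, at 21.2% against 30.7% (odds ratio 0.609, 0.519 to 0.714).

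Matches to 10 motifs were counted within 100 bp of the centre on both strands, a description of letters and not of binding sites. The octamer ATGCAAAT was matched exactly, and the Oct-Sox motif, written as CATTGT, 1 free base and the octamer, with up to 2 mismatches. Either matched at 210 of 1833 promoter regions with OCT4 (11.5%), 14.1% of other OCT4 regions, 10 of 281 NANOG-only promoter regions (3.56%) and 1.61% of windows of the same length at all annotated gene starts. Gene-start windows lay at the 5′ end and promoter windows up to 1 kb from a start site, so their shares are not at like positions. The odds ratio for promoter against other OCT4 regions was 0.789 (0.679 to 0.917) but 0.916 (0.786 to 1.07) within GC quartiles, so the difference was not detectable at equal GC content. It depended on the letters. A form of Oct-Sox 1 base shorter, which also took A or T at position 2, was tried after the original form had been run. With that form the odds ratios were 0.578 (0.511 to 0.653) and 0.696 (0.614 to 0.788).

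Among promoter regions in OCT4 high, an octamer or Oct-Sox match was commoner where OCT4 was kept in negative cells (110 of 691, 15.9%, 13.4 to 18.8%) than where it was lost (33 of 416, 7.93%, 5.70 to 10.9%), with an odds ratio of 2.20 (1.46 to 3.31). Away from promoters the shares went the same way, at 17.9% (17.0 to 18.9%) and 11.5% (10.6 to 12.4%). The octamer alone gave 11.3% and 6.97% (interval of the odds ratio 1.09 to 2.65). The ESRRB motif TCAAGGTCA, with up to 1 mismatch, went the other way, at 43 kept regions (6.22%) and 45 lost ones (10.8%, odds ratio 0.547, 0.353 to 0.847), and at 4.74% of gene starts. Other regions again went the same way, at 8.02% (7.37 to 8.73%) kept and 14.4% (13.5 to 15.4%) lost, and whether the contrasts differ between promoters and other regions was not tested. Its reversed letters, a control, stood at 6.37% and 5.53% (odds ratio 1.16, 0.691 to 1.95). These are 2 of 7 motif comparisons between kept and lost regions, and no correction for their number was made. The KLF motif GGGNGTGG gave 14.9% and 17.5% (odds ratio 0.823, 0.593 to 1.14). Gained regions had an octamer or Oct-Sox match at 11.8% and an ESRRB match at 4.10%. The GC box GGGCGG was in 14.9% of promoter regions with OCT4, 6.16% of other OCT4 regions and 27.5% of all gene starts. The SOX core CATTGTT was in 3.27% of promoter regions with OCT4, 5.43% of other OCT4 regions and 2.34% of gene starts. For the TATA box TATAAA these shares were 6.27%, 7.07% and 9.30%. The ETS motif CCGGAAGT was in 0.982% of promoter regions with OCT4, 0.28% of other OCT4 regions and 2.77% of gene starts. For the NRF1 motif these shares were 0.273%, 0.158% and 0.673%. The CCAAT box CCAAT was in 25.4% of promoter regions with OCT4, 24.0% of other OCT4 regions and 28.0% of gene starts. The Oct-Sox motif holds the octamer, and the KLF motif and GC box can overlap. Exact octamers read with transcription at 78 sites and against it at 95 (54.9%, 47.5 to 62.1%), so no orientation was detectable.

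**Figure D4:**
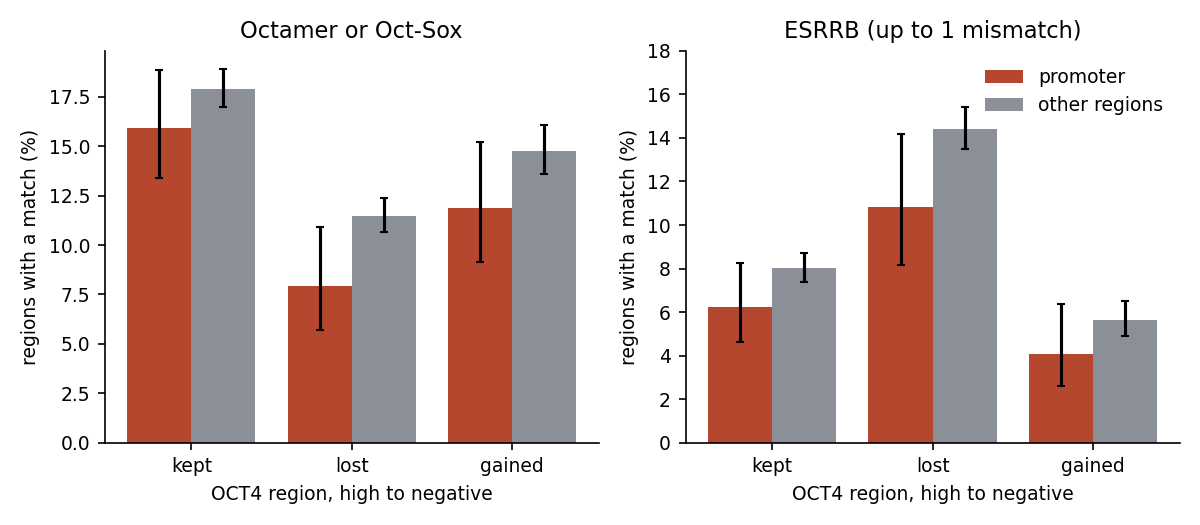
Share of OCT4 regions with a match within 100 bp of the centre (%, y axis, 95% Wilson interval), for regions kept, lost or gained between high and negative cells, at promoters and elsewhere. At promoters the octamer or Oct-Sox share is 15.9% for kept and 7.93% for lost regions, and the ESRRB share 6.22% and 10.8%.

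Genes of the naive pluripotency list and Hox genes were the groups most often bound at promoters among those counted. The naive list is not limited to genes specific to the naive state. It also holds Pou5f1 and Sox2, whose expression the paper reports as retained in negative cells. Tfcp2l1 and Nac1 were not found in the annotation under these symbols and are not counted. Of 53 naive genes, 24 had a promoter region (45.3%, 32.7 to 58.6%), with 38 regions in all, of which 20 held NANOG, against 515 of all 2114 promoter regions (24.4%). Of 40 Hox genes, 18 had one (45.0%, 30.7 to 60.2%), with 29 regions and NANOG at none of them. The naive regions were in OCT4 high, medium and negative at 24, 27 and 16 and in NANOG at 18, 15 and 3. The Hox regions were in OCT4 at 12, 17 and 22. Of the 24 naive regions in OCT4 high, 10 were lost in negative cells, and of the 12 Hox regions 4, beside 37.6% of promoter regions and 45.1% of all regions. Gained were 2 of the 16 naive regions and 14 of the 22 Hox regions in OCT4 negative, beside 38.8% of promoter regions and 34.1% of all regions. These are counts over chosen lists beside 5.36% of all genes with a promoter region, and the groups were not tested against each other.

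**Figure D5:**
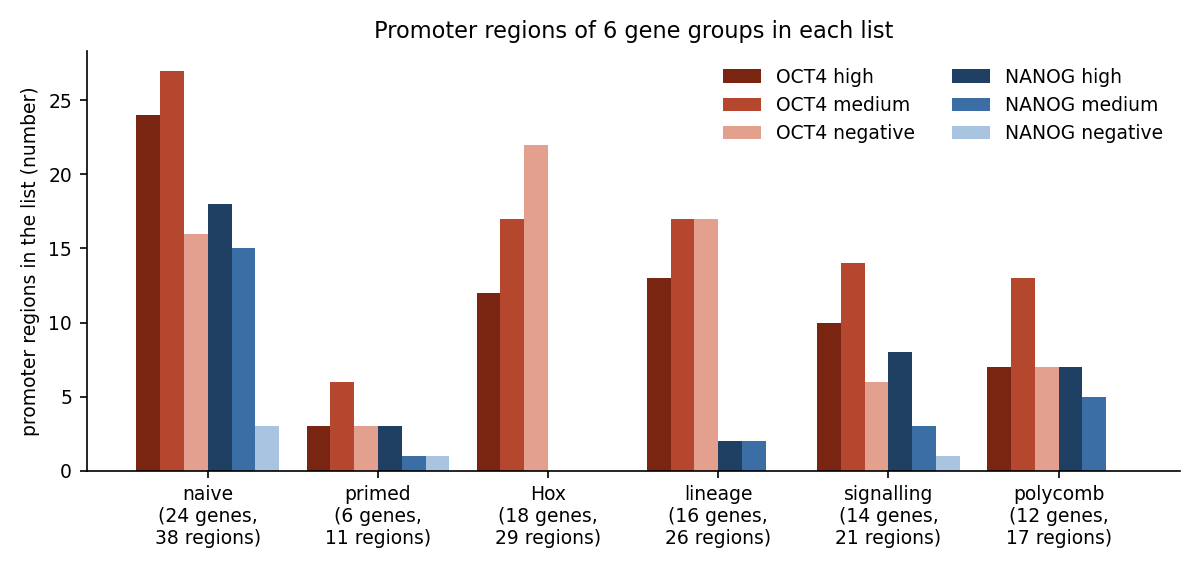
Number of promoter regions (y axis) of 6 gene groups in each of the 6 lists. Naive genes fall from 24 OCT4 regions in high to 16 in negative cells, and Hox genes go from 12 to 22 with no region in a NANOG list.

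Among the naive genes, Pou5f1 had the widest region, 740 bp wide and centred 920.5 bp upstream, present in every list but NANOG negative. The same pattern of 5 lists was seen at Tbx3, a T-box factor, at Rif1, at the spalt factor Sall4, at Mkrn1, at Fbxo15, at Zscan10 and at 2 regions of the Polycomb gene Phc1. Several of these genes had a further promoter region with another pattern. Those of Sall4, 90.5 bp upstream, and Tbx3, 921.5 bp downstream, were in OCT4 high and medium alone. That of Rif1 was in OCT4 high alone, that of Mkrn1 in NANOG high alone, and that of Phc1 in OCT4 medium and negative. Nanog itself had a 420 bp region at its start site, centred 10.5 bp downstream, that was in all 3 OCT4 lists and, of the NANOG lists, in the negative one only. Sox2, encoding the partner of OCT4, had a 40 bp region in its exon that was in NANOG negative alone. The paper reports a marked drop of NANOG binding in negative cells, also at regions still called there. Stronger NANOG binding in negative cells is therefore not read from the Nanog and Sox2 calls.
Esrrb had 3 promoter regions: the intronic one shown earlier, one in an exon with NANOG in high and medium and no OCT4, and one with NANOG in high only. None of the 3 was present in negative cells. The reporter of every fraction sits at this locus, and any effect of it on these regions was not tested. Dppa3, a maternal-effect gene, had 2 regions, centred 136.5 and 26.5 bp upstream, both in OCT4 high and medium alone, and the single region of Dppa5a had the same pattern. Tdgf1, encoding the Nodal co-receptor, had OCT4 in high only, and Upp1 had OCT4 in high and medium and NANOG in high. At Dppa4, as at Spp1, NANOG was in high and medium without OCT4.
Nr5a2, a nuclear receptor gene, had 2 regions, of which one, centred 204.5 bp upstream, held OCT4 in high and medium and the other, 124.5 bp upstream, NANOG in high and medium. Zscan10 had 4 regions with 4 patterns, among them one with NANOG in all 3 fractions and no OCT4. OCT4 was in all 3 fractions without NANOG at Ash2l and at one region of Mycn, and in high and negative but not medium at Lin28a. The other region of Mycn, 961.5 bp upstream, was in OCT4 medium alone. OCT4 was in medium alone at Dppa2 and Trim28.

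Of 32 primed genes, 6 had a promoter region (18.8%). Lefty1 had 5, none with NANOG: OCT4 was in all 3 fractions 10.5 bp upstream of a start site, in high and medium 441.5 bp upstream, in negative alone 71.5 bp upstream, and in medium alone at the other 2. Otx2, a head and epiblast homeobox gene, had the OCT4 medium region shown earlier and, 194.5 bp upstream, a region in NANOG high alone. The octamer capitalised in the Otx2 sequence lies within 100 bp of the centre of both. The de novo methyltransferase gene Dnmt3a had a 40 bp region with NANOG in all 3 fractions and no OCT4. Sfrp2, a Wnt modulator, had OCT4 in high and negative, Lef1 had OCT4 in medium, and Cdh2 had NANOG in high.

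At the Hox genes, OCT4 was present in all 3 fractions at Hoxa5, Hoxa6, Hoxb1 and one region of Hoxb7. Hoxb6 had 2 such regions and 1 more in medium and negative. Hoxd11 had 5 promoter regions, of which 2 were in OCT4 medium and negative, 2 in medium alone and 1 in high alone. Several genes named here after their values were seen had OCT4 in negative alone, among them Hoxa9, Hoxb8, Hoxc9 and Hoxd3, and both regions of Hoxc6.

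Of 58 lineage genes found in the annotation, 16 had a promoter region (27.6%, 17.8 to 40.2%), with 26 regions, 2 of them with NANOG. Sox1, Tfap2a and Tfap2c of the lineage list were not found under these symbols. The 5 regions of Tcfap2a, the annotation's name for Tfap2a, are therefore not in these counts. Pax6 had 5: a 740 bp region 706.5 bp upstream of a start site was Class I, with both factors in high and medium, 2 regions held OCT4 in all 3 fractions, 1 held it in high and negative and 1 in negative alone. OCT4 was in all 3 fractions at the trophectoderm gene Cdx2, at Meis1, at 1 region of Nkx2-2 and at 2 regions of the forebrain gene Six3. The other regions of Nkx2-2, 165.5 bp downstream and 873.5 bp upstream, were in OCT4 medium alone. Of the 17 lineage regions in OCT4 negative 8 were gained, and of the 13 in OCT4 high 4 were lost, beside the same 38.8% and 37.6% of promoter regions.

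Of 60 signalling genes, 14 had a promoter region (23.3%). The FGF-responsive factor gene Etv5 had one in every list but NANOG negative, and Fgfr1 had OCT4 in all 3 fractions with NANOG in high. Tcf7l1, encoding a Wnt pathway repressor, had a 480 bp region with both factors in high and medium and neither in negative. Fgfr2 had OCT4 in high and medium and NANOG in high, and Wnt8a OCT4 in all 3 fractions. Of 65 Polycomb and chromatin genes, 12 had one (18.5%). Jarid2, a subunit of a Polycomb complex, had a region in every list but NANOG negative, and Cbx7 had 3 regions with OCT4 and none with NANOG. The cell cycle group had 4 of 46 genes, Ccnd1 with OCT4 in all 3 fractions, Ccnd2 in high and medium, Bub1b in medium, and Mycn.

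Other gene classes ranged from under to above the 5.36% of all genes with a promoter region. Histone genes, linker histone H1 genes among them, had a promoter region at 8 of 89 (8.99%, 4.63 to 16.8%). Ribosomal protein genes had one at 3 of 79 (3.797%) and proteasome genes at 3 of 45 (6.67%). Zinc finger genes named Zfp stood at 33 of 376 (8.78%, 6.32 to 12.1%) and solute carriers at 31 of 358 (8.66%, 6.17 to 12.03%). Both intervals lay above the share of all genes but included the 6.93% of all protein-coding genes. The 5 of 43 respiratory complex I genes with a promoter region (11.6%, 5.07 to 24.5%) had OCT4 in negative cells at all 5 regions and NANOG at none. Among all 2114 promoter regions, 1130 were in OCT4 negative and 24.4% held NANOG, and 5 regions are too few to read a pattern from. NANOG was at 6 of 42 Zfp gene regions and at 12 of 33 solute carrier gene regions, beside the same 24.4%. Olfactory receptor genes had one at 10 of 1251 (0.799%, 0.435 to 1.47%) and vomeronasal receptor genes at 1 of 328 (0.305%). Histone genes are short and clustered, so that 1 region centred 23.5 bp downstream of the Hist1h2ba start site also counted for Hist1h2aa.

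There were 59 promoter regions in 5 or 6 lists. The widest after Pou5f1 was a 660 bp region 785.5 bp upstream of Mir290, the first of a miRNA cluster of embryonic stem cells, followed by 520 bp regions at Gm12974 and Phc1. Regions of 420 to 460 bp lay at Gapdh, Epb4.9, Acoxl, Mkrn1 and Tbx3, and all were in every list but NANOG negative. The widest Class I promoter regions were at Cpsf4l (1020 bp), Pax6 (740 bp), SNORA17 and Sugp2 (580 bp each) and Mras (520 bp). The widest Class II ones were at Tead1, a Hippo pathway factor gene (1040 bp), at Gm6792 (820 bp) and at Pou5f1, Mir290 and Gm12974. Of 5 promoter regions in NANOG negative named by rule, those at AL731851.1 and Shc4 held both factors in high cells, that at Phf21a had OCT4 in medium and negative, and those at Tspan18 and Tomm34 had no OCT4.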

How the data were processed

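OCT4 and NANOG ChIP-Seq peak positions from 6 samples were analysed, 1 per factor and sorted fraction. The lists deposited by the authors hold chromosome, start and end (mm9) and no score. Per the labels and methods, reads were aligned with Bowtie in GeneProf, SISSRs supplied the peaks, overlapping peaks of all libraries were joined, and loss in a fraction required a depth-corrected signal under 50% of the region's highest value. Each library came from pooled immunoprecipitations. The lists share identical intervals, and no neighbouring intervals overlapped, so presence was read by exact position. Read depth is unknown. One label calls the negative fraction Esrrb-low, and the sorted fraction named in the other labels was used.

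Region centres were set against start sites of GENCODE vM1 (95495 transcripts, 37310 genes) with Python 3.11.15, pysam 0.24.0 and scipy 1.17.1. Shares were given with Wilson intervals, and odds ratios with Woolf intervals or, within quartiles, as Mantel-Haenszel estimates. The functions passed 8 of 8 tests on simulated data. The members and gene lists were chosen with earlier results of these data known. Symbols not found in the annotation were left out. They were Tfcp2l1 and Nac1 (naive), Sox1, Tfap2a and Tfap2c (lineage), and Kmt2a and Kmt2d (Polycomb and chromatin). Genes were named by rule: all naive and primed genes with a promoter region, up to 5 per other list by number of lists, then width, regions in 5 or 6 lists up to 10, the 5 widest of each class, up to 5 NANOG negative regions and the 5 genes with most regions. The letters of the Oct-Sox motif were changed to a shorter form after the first output had been seen. The first form was then restored for the reported values, and the shorter one is given as an alternative. The kept against lost motif comparisons were added after seeing the data. Alternatives covered the distance, the annotation, the overlap, region width, merging, sex chromosomes, GC content and motif windows.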

Additional observations from a re-analysis of the deposited data

How the results depend on the processing

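No reversal was seen in 107 alternative values of 12 results. OCT4 loss, co-binding in high cells, the undetected Class II difference, and the kept against lost contrasts of both motifs kept their direction and their side of the threshold under each alternative run for them. Others did not, and the cause was not tested. The share of regions at promoters was 5.55% within 500 bp, 14.3% within 2 kb, 7.22% for protein-coding transcripts and 6.39% for the most upstream start site of each gene. The upstream share was 64.1%, 56.3% and 62.6% under the first 3 of these, the protein-coding share was 72.2% under the last, and histone genes stood at 2.25% within 500 bp. The odds ratio of OCT4 gain was 1.13 within GC quartiles. That of NANOG loss by medium was 0.810 within 500 bp and 0.802 for regions of at least the median width of 80 bp. That of an octamer or Oct-Sox match was 0.860 within 500 bp, 0.937 for such regions, 0.916 within GC quartiles and 0.901 for exact octamers. The shorter Oct-Sox form, chosen after seeing the data, gave 0.578, and 0.696 within GC quartiles, so the GC result rests on the letters searched. Leaving out ESRRB matches with T7C, also added later, gave 0.562 for kept against lost, and exact matches, at 2 kept and 8 lost regions, gave 0.148. No paired analysis was possible because each factor and fraction has 1 library. Without scores or reads, a region near the calling limit cannot be told from a clear change.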
